A study of Mus musculus with 4 samples.

Results

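The genes described here are those of the machinery that takes a cell from G1 into S phase: the D-type cyclins Ccnd1, Ccnd2 and Ccnd3, the E-type cyclins Ccne1 and Ccne2, cyclin A2 (Ccna2), the cyclin-dependent kinases Cdk2 and Cdk4, and the kinase inhibitors Cdkn1a (p21) and Cdkn1b (p27). They were chosen by gene symbol in the deposited annotation. Of the 10 genes, 9 had a probe, out of 17876 genes on the array, and Cdk4 was not analysed here. Among their 20 probes, 17 were detected on some array and 15 on every array.

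Expression was measured on Illumina bead arrays in mouse E14 embryonic stem (ES) cells, kept undifferentiated by the cytokine LIF. The cells had been stably infected with a virus expressing either a scrambled shRNA, the control, or an shRNA against AKAP95, a nuclear A-kinase anchoring protein encoded by Akap8. Both kinds of cell grew on 0.1% gelatin. They were taken untreated, with LIF, or as a monolayer that had spent 4 days without LIF and then 4 days with all-trans retinoic acid (RA) at 1 µM. This gave 4 groups of 1 array each. The labels say that the cells were stably infected and give no shRNA sequence and no number of clones. Total RNA was labelled as biotinylated cRNA.

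D-type cyclins bind Cdk4 or Cdk6 and begin the phosphorylation of the retinoblastoma protein, which frees E2F factors to switch on S phase genes. Cyclin E with Cdk2 completes that step, cyclin A2 with Cdk2 acts in S phase, and p21 and p27 bind these complexes and hold them back. Mouse ES cells are known for a short G1 phase with strong cyclin E and Cdk2 activity, and G1 lengthens when they differentiate.

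Since each group is 1 array, there is no replicate spread to set a difference against, and a size rule of 2-fold (1 on the log2 scale) was used for single pairs of arrays. A probe was called detected at a detection p under 0.01. The additive limma model over all 4 arrays gave p-values for the RA term and the shRNA term, adjusted by the Benjamini-Hochberg method over 9875 genes. Its 1 residual degree of freedom per gene is the difference between the RA effects of the populations, pooled over genes, so these p-values do not measure a spread between separate cultures. What is called the RA effect holds RA, the loss of LIF and the days in culture. These cannot be told apart. In bulk RNA, fewer cells of a type and less RNA per cell cannot be told apart either.

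Between 11344 and 12156 of 25697 probes were detected per array. Akap8, on chromosome 17, had a signal of 272 in scramble and 139 in knockdown cells before RA (2.27-fold lower), and of 297 and 199.7 after RA (1.70-fold lower). The first difference was -0.87 on the log2 scale without background correction, against -1.18, and the limma knockdown term was -0.98 (standard error 0.19, adjusted p = 0.818). Of 10 ES cell markers, 10 were detected on both undifferentiated arrays. Their summed normalized signal over background was 44112 in scramble and 44759 in knockdown cells, and after RA it was 1520 and 5691. The 8 that were detected on all 4 arrays, Pou5f1 among them, fell with RA in limma. Fgf4 and Tdgf1 were detected on the untreated arrays alone, so the filter fixed their direction. Of 8 neuronal markers, 6 were detected on each RA-treated array, with a summed signal of 2977 in scramble and 854 in knockdown cells. Before RA the sum was 2333 and 2734. Stmn2 was the brightest of them then, with signals of 1917 and 2290, and its log2 RA effects were -2.31 and -5.27. Of the others detected on all 4 arrays, Map2 and Nes were higher after RA in both populations and Gap43 in scramble cells alone.

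RA changed 3 of the 9 genes in the limma fit. Ccnd2 and Cdkn1a rose and Ccne1 fell, each past 2-fold in both cell populations when read from its brightest probe. The dimmer probes of Cdkn1a rose in both populations, but neither passed 2-fold in both. Over all genes 18.9% rose and 16.3% fell at an adjusted p under 0.05, so 3 of 9 is close to the 35.2% called among all genes, and the median RA effect of the 9 was -0.21 on the log2 scale. For the shRNA term 0 of 9 genes passed, as did 0% of all genes by limma, with 4.17% of all genes at an unadjusted p under 0.05. Of the 9, the gene in which the populations differed most was Ccnd1, which was higher after RA in scramble cells and lower after RA in knockdown cells.

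**Figure D1:**
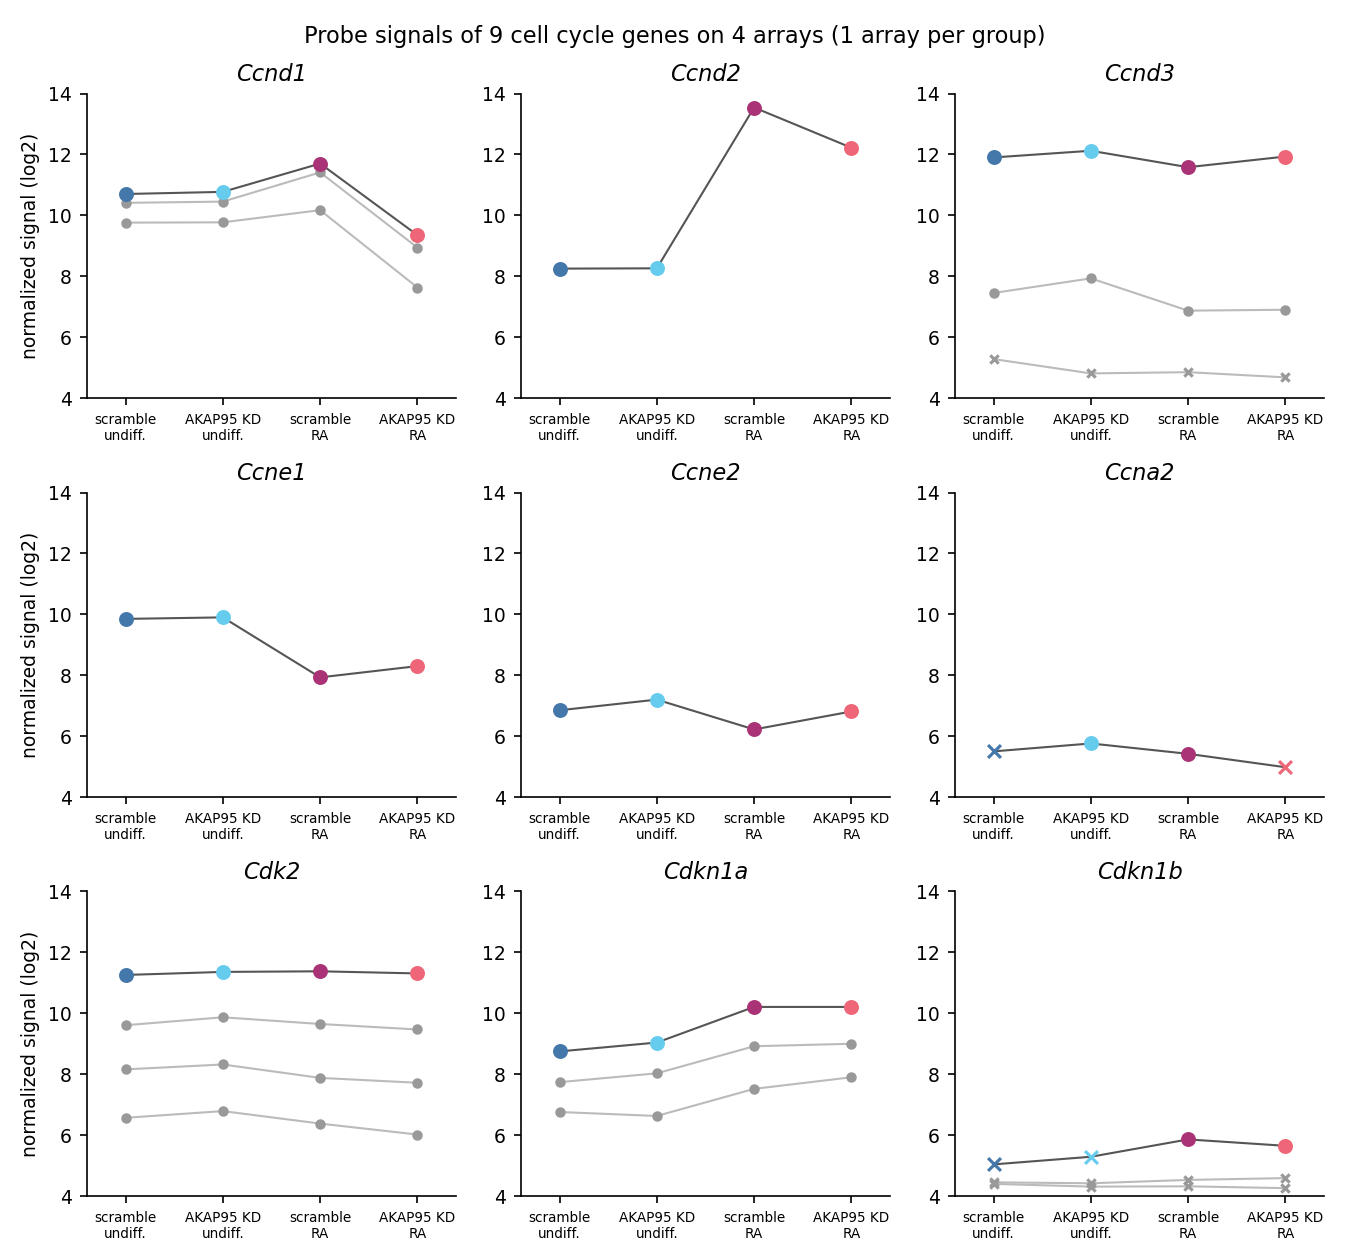
Normalized log2 signal (vertical axis) of every probe of the 9 genes on the 4 arrays (horizontal axis), with coloured points for the probe that stands for the gene, grey points for its other probes and crosses for probes that were not detected. Ccnd2 stands at 8.25 and 8.26 on the undifferentiated arrays and at 13.54 and 12.22 after RA, while Ccnd1 is lowest on the array of RA-treated knockdown cells. Heights of different probes are not comparable.

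Ccnd2, on chromosome 6, was read from 1 probe. Without RA its signal was 315 in scramble and 307 in knockdown cells, and with RA it was 12150 and 4616. Both RA-treated arrays stood far above both undifferentiated arrays, which were alike. The RA effect was 39.1-fold in scramble cells (log2 5.29) and 15.5-fold in knockdown cells (log2 3.95), and 12 of 9509 and 22 of 9530 genes compared, Ccnd2 included, were higher by as much. Over both populations limma gave a rise of 4.62 (standard error 0.38, adjusted p = 0.00994). Before RA the knockdown and scramble arrays differed by 0.01. After RA the knockdown array was 2.50-fold lower (log2 -1.32). Of 9397 genes compared 150, Ccnd2 included, were lower by as much, and 3.25% were lower by at least 2-fold. Subtracting the RA effect of scramble cells from that of knockdown cells gave -1.33.

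Ccnd1, on chromosome 7, had 3 probes, all detected on all 4 arrays. The brightest read 1674 in scramble and 1701 in knockdown cells without RA, and 3406 and 765 with RA. The RA-treated arrays thus stood on opposite sides of the undifferentiated ones. The middle probe had signals of 1360, 1336, 2817 and 598.5 in the same order, and the dimmest 846, 821, 1276 and 277. All 3 probes put the arrays in the same order apart from the undifferentiated pair, in which they differed by at most 0.07 on the log2 scale.

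In scramble cells the RA effect on Ccnd1 was 1.00 on the log2 scale with the brightest probe, 1.00 with the middle one and 0.41 with the dimmest. It lay at the 2-fold line and fell below it under 5 of 8 alternative settings, with a lowest value of 0.81. In knockdown cells the effect was -1.43, -1.51 and -2.14 in the same order of probes, past 2-fold with each. After RA the knockdown array differed from the scramble array by -2.35, -2.48 and -2.54 on the log2 scale. With the brightest probe this was 5.11-fold, and 25 of 9397 genes compared, Ccnd1 included, were lower by as much. Subtracting the RA effect of scramble cells from that of knockdown cells gave -2.43, and 29 of 9875 genes had a value as low. Over both populations limma gave an RA term of -0.21 for Ccnd1 (standard error 0.64, adjusted p = 0.81) and a knockdown term of -1.14 (adjusted p = 0.818). The opposed directions enter the standard error, which was between 0.16 and 0.38 for the other 8 genes.

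**Figure D2:**
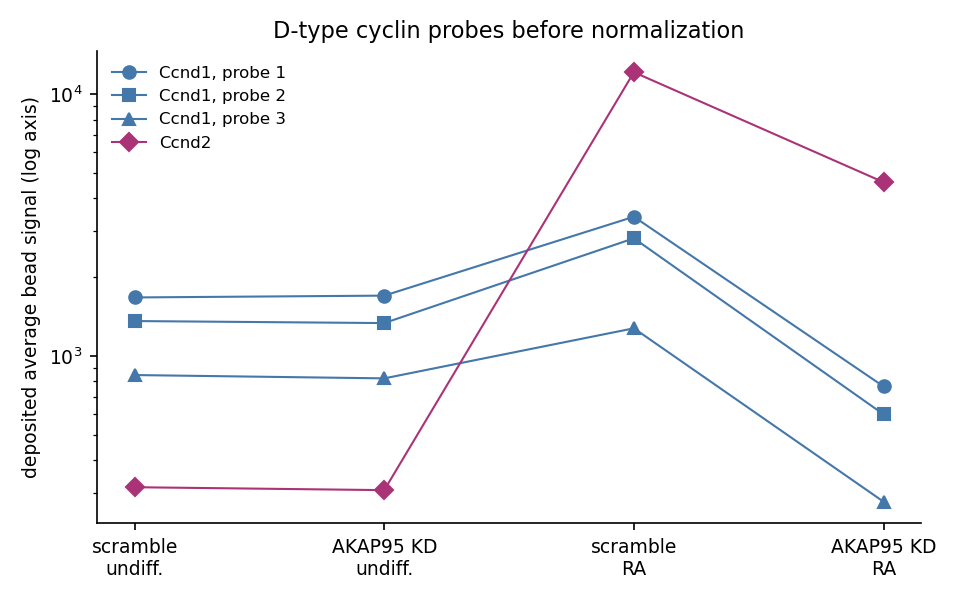
Deposited average bead signal (vertical log axis, before normalization) of the 3 Ccnd1 probes and the Ccnd2 probe on the 4 arrays (horizontal axis). The Ccnd1 probes are all highest in RA-treated scramble and lowest in RA-treated knockdown cells, with the brightest at 3406 in RA-treated scramble and 765 in RA-treated knockdown cells, and Ccnd2 rises from 315 to 12150 in scramble and from 307 to 4616 in knockdown cells.

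Of the 9164 genes compared in both populations, 905 passed 2-fold upwards and 731 downwards in both. Ccnd1 was 1 of 3 genes that were higher by at least 2-fold in scramble cells and lower by at least 2-fold in knockdown cells, and 3 genes went the opposite way. Its place among them is marginal, since in scramble cells it lay at the 2-fold line and below it under most alternative settings. The others of the first kind were Fez1, a gene of axon outgrowth, and Sp5, a Wnt-responsive transcription factor gene, both named after their values were seen. Among 7590 genes detected on all 4 arrays, the patterns nearest to Ccnd1, by the Euclidean distance between mean-centred log2 values over the 4 arrays, were those of Fez1 (0.29), the growth cone gene Gap43 (0.46) and the oligodendrocyte lineage factor gene Olig1 (0.48). Nearest to Ccnd2 were Igfbp4, which encodes an insulin-like growth factor binding protein (0.35), Nrep (0.48) and Lbh (0.58). Only 4 and 2 genes lay within 0.50 of Ccnd1 and Ccnd2.

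Where Ccnd1 and Ccnd2 were lower, in RA-treated knockdown cells, the neuronal markers were lower too. By the 2-fold rule 5 of 6 neuronal markers compared were lower and 0 higher (median log2 difference -2.45). Nefl was not detected on any array, and Tubb3 was not detected on either RA-treated array. Of 8 ES cell markers 5 were higher and 0 lower (median 1.49), against a median of 0.00 for all genes. By the same rule 3.25% of all genes were lower and 3.17% higher. The summed signal of 8 endoderm markers was 2902 in scramble and 1391 in knockdown cells after RA, with Afp and Ttr not detected on any array, and that of 6 fibroblast and mesenchyme markers 2796 and 1544, with Col1a2 not detected. The brightest of these lists were Gata6 (signals of 1615 and 712) and Vim (2167 and 976), and the median log2 differences were -0.59 and -1.03. Foxa2 and Dcn went the other way, by 0.20 and 0.85. The summed signal was 3372 and 3056 for 6 mesoderm and muscle markers, with T and Kdr not detected. Acta2 was the brightest of them, with signals of 3380 and 2886 and a log2 difference of -0.19. Pecam1 (1.23), Tagln (0.61) and Myog (0.03, a bound) went the other way, and the median difference was 0.32. For 6 trophectoderm markers the summed signal was 1292 and 2200. Tfap2c carried that last difference, with signals of 536 and 1291 after RA and of 1724 and 1666 before it, and the list's median difference after RA was 0.22. The part of these cell types in the cyclin values was not tested.

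**Figure D3:**
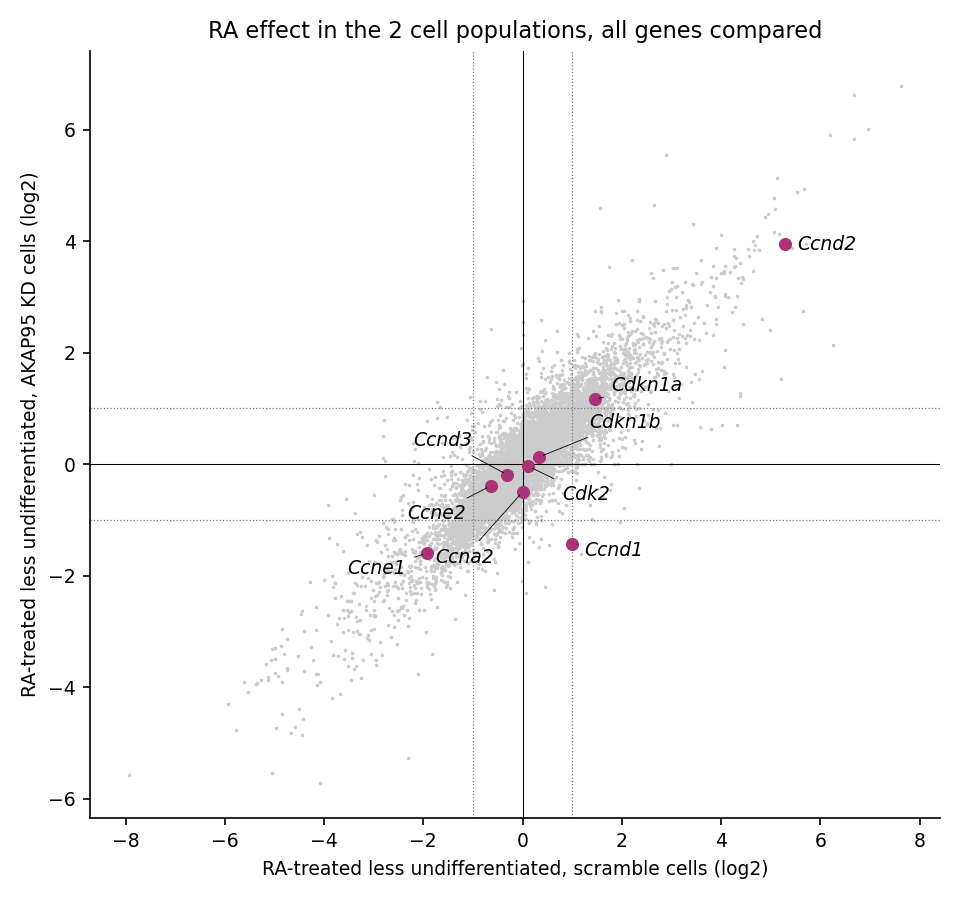
RA effect in AKAP95 knockdown (KD) cells (vertical axis, log2) against that in scramble cells (horizontal axis, log2) for the 9164 genes compared in both, with the 9 genes in colour and dotted lines at 2-fold. Ccnd1 lies at 1.00 and -1.43, away from the diagonal band that holds most genes, and Ccna2 is drawn at 0 in scramble cells because no fold could be given.

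Ccnd3, on chromosome 17, had 3 probes, of which 2 were detected on all arrays. The brighter had a signal of 3987 and 4432 in untreated scramble and knockdown cells and of 3143 and 3845 after RA. The 4 arrays were close together, and the pairwise differences lay between -0.31 and 0.35 on the log2 scale. Limma gave an RA term of -0.25 (standard error 0.16, adjusted p = 0.291). The dimmer gave other values, with -1.04 for RA in knockdown cells and a limma RA term of -0.81 (adjusted p = 0.0424 in the fit of every probe on its own), and the third was not detected on any array.

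Ccne1, which encodes cyclin E1 and lies on chromosome 7, was lower after RA in both populations. Its 1 probe had a signal of 901 and 895 in untreated scramble and knockdown cells and of 322 and 403 after RA. The undifferentiated pair was alike, and both RA-treated arrays were well below it. The fold was 3.81 in scramble cells (log2 -1.93) and 3.03 in knockdown cells (log2 -1.60), and limma gave a term of -1.76 over both, a fall (standard error 0.18, adjusted p = 0.0122). By the 2-fold rule 11.8% of all genes were lower in scramble cells and 9.81% in knockdown cells. The knockdown array differed from the scramble array by 0.05 before RA and by 0.37 after RA. A pattern of this shape was common, with 159 of 7590 genes within 0.50, and the nearest were Hsp90aa1 (0.03), Asns (0.04) and Sdcbp2 (0.06).

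Promoter sequences of RefSeq (build GRCm38.p6), from 250 bases before to 50 after a gene's start, held 8 windows for 6 of the 10 genes. Those of Ccne1 and Cdkn1a are shown because these genes changed with RA in limma in opposite directions. In the Ccne1 window (chr7:38107441-38107740, minus strand) capitals mark GC boxes, the letters GGGCGG on either strand.
Ccne1: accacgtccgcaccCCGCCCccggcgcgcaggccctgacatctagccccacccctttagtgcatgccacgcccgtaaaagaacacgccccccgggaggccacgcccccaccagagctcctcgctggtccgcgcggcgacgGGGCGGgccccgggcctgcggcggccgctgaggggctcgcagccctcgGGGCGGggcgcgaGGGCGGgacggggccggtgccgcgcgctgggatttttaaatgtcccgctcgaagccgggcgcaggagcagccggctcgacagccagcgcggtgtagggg
The window had 4 GC boxes and 76.0% G or C, and 35.7% of the 32851 promoter windows of this length hold at least 1 GC box. The E2F motif TTTNNCGC, searched on both strands, had 0 matches there and is in 5.17% of all windows. Of the 8 windows, that of Cdk2 held the 1 E2F match, which shared 0 bases with a GC box. The DR5 element, a direct repeat bound by retinoic acid receptors, had 0 matches on either strand in the 8 windows and is in 0.00913% of all.

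Ccne2, on chromosome 4, encodes cyclin E2. Its 1 probe read 145 in scramble and 167 in knockdown cells without RA, and 129.6 and 178 with RA. The knockdown array was the higher in each state, by 0.35 before and 0.59 after RA on the log2 scale, both under 2-fold. Limma gave an RA term of -0.51 (standard error 0.17, adjusted p = 0.0926) and a knockdown term of 0.47 (adjusted p = 0.818), and neither passed. Ccna2, on chromosome 3, had signals of 85.25, 91.2, 93.1 and 78.9 in the same order and lay at the edge of detection, with detection p-values of 0.0113, 0.00627, 0.00877 and 0.0351. It was detected in undifferentiated knockdown cells and in RA-treated scramble cells, and passed the filter through these arrays. Its RA term was -0.43 (standard error 0.24, adjusted p = 0.23 by limma), and no fold could be given for RA in scramble cells.

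Cdk2, the kinase partner of cyclins E and A, lies on chromosome 10 and stayed nearly level over the 4 arrays. Its brightest probe read 2530 and 2618 in untreated scramble and knockdown cells and 2747 and 2550 after RA. The 4 log2 differences between arrays lay from -0.07 to 0.12, and the limma RA term was 0.04 (standard error 0.17, adjusted p = 0.866). All of its 4 probes were detected on all arrays. The other 3 gave RA terms of -0.17, -0.44 and -0.49, none past the threshold in the fit of every probe.

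**Figure D4:**
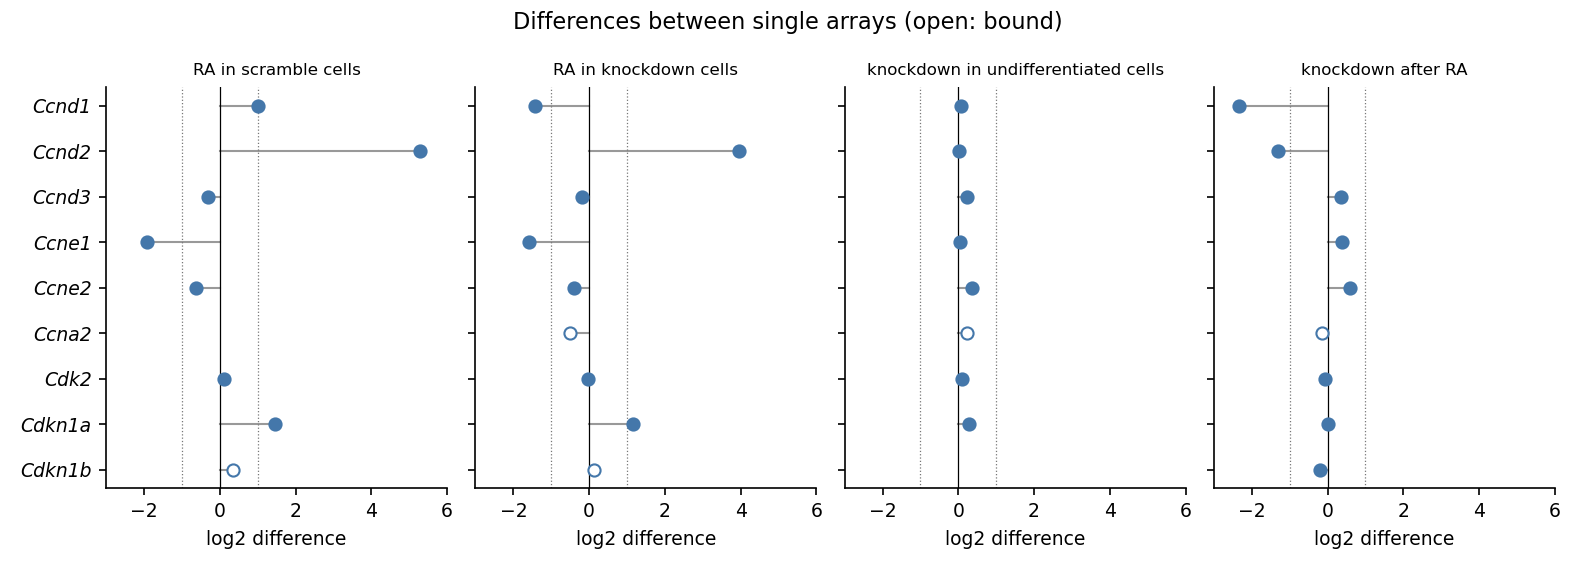
Log2 difference of the 9 genes (rows) in each of the 4 pairs of arrays (panels, horizontal axis), with filled points for differences, open points for bounds and dotted lines at 2-fold. No value is drawn for Ccna2 with RA in scramble cells or for Cdkn1b with the knockdown before RA. The other differences between knockdown and scramble cells before RA lie between 0.01 and 0.35, and after RA Ccnd1 and Ccnd2 are the genes past 2-fold, at -2.35 and -1.32.

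Cdkn1a, the gene of p21, lies on chromosome 17 and was higher after RA in both populations. Without RA its brightest probe read 434.5 in scramble and 503 in knockdown cells, and with RA 1306 and 1311. Both RA-treated arrays were alike and well above the undifferentiated ones. The RA effect was 2.76-fold in scramble cells (log2 1.46) and 2.24-fold in knockdown cells (log2 1.16), where 14.2% and 12.4% of all genes were higher by at least 2-fold. Limma gave a rise of 1.31 over both (standard error 0.18, adjusted p = 0.0171). The other probes gave rises of 1.07 and 1.02, with adjusted p-values of 0.0179 and 0.0276 in the fit of every probe. Their log2 RA effects were 1.18 and 0.76 in scramble cells and 0.97 and 1.27 in knockdown cells. Neither of them was thus past 2-fold in both populations. With the brightest probe the knockdown effect was 0.29 before RA and 0.00 after it. The other probes gave 0.29 and -0.13 before RA and 0.08 and 0.37 after it. The pattern was common, with 541 genes within 0.50, and nearest were Rbms1 (0.04), Fam107b (0.05) and Stau2 (0.05).

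Cdkn1a is a classical target of p53, and RefSeq gives it a pair of promoter windows. In the upstream one (chr17:29090729-29091028, plus strand) capitals mark matches to the p53 half-site.
Cdkn1a upstream: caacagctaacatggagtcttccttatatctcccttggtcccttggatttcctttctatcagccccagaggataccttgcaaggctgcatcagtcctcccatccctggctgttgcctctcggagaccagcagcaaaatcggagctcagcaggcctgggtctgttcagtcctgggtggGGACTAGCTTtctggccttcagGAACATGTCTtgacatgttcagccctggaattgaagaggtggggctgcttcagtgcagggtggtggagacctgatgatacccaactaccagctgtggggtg
In the downstream one (chr17:29093519-29093818, plus strand) capitals mark GC boxes.
Cdkn1a downstream: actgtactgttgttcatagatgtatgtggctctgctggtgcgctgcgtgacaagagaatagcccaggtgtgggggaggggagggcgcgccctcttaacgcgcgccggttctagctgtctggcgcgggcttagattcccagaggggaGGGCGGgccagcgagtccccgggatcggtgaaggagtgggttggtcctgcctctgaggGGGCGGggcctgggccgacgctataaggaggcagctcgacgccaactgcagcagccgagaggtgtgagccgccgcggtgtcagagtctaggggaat
The upstream window held 2 p53 half-sites and 0 GC boxes, and the downstream window 0 and 2. The half-site was searched on both strands and is in 8.36% of the 32851 windows. No other window of the 10 genes held one. These are matches of letters only, and binding was not measured.

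Cdkn1b, the gene of p27, lies on chromosome 6 and was near background. Its brightest probe had signals of 74.7 and 79.4 in untreated scramble and knockdown cells and of 110.5 and 103 after RA, with detection p-values of 0.0476, 0.0263, 0 and 0.00125. It was detected on the RA-treated arrays alone and passed the filter through them, so its direction was fixed by that filter. The increase was at least 1.27-fold in scramble and at least 1.09-fold in knockdown cells, and limma gave 0.59 (standard error 0.20, adjusted p = 0.0936). Its other probes were not detected on any array.

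Across the 9 genes, RA in scramble cells left 3 higher and 1 lower by 2-fold, where 26% of all genes passed in either direction. In knockdown cells 2 were higher and 2 lower, against 22.2% of all genes. Ccna2, without a fold in scramble cells, was counted there as not past 2-fold. The median difference was 0.12 in scramble and -0.19 in knockdown cells, and 0.00 for all genes in both. Before RA the knockdown left 0 of 8 genes past 2-fold, against 0.0687% of all genes higher and 0.126% lower (0.195% in either direction). After RA it left 2 of 9 genes lower and 0 higher by the same rule, against 3.25% and 3.17% of all genes (6.42% in either direction), and their median log2 difference was -0.07. For the difference between the RA effects, Ccnd1 and Ccnd2 were the 2 genes past 2-fold, both lower, against 3.87% of all genes lower and 4.24% higher (8.11% in either direction).  Across 1855 genes with several probes detected on all arrays, the standard deviation between probes of a gene had a median of 0.09 for the knockdown comparison before RA and of 0.11 after RA. It was 0.16 and 0.18 for RA in scramble and knockdown cells. That spread does not hold differences between cultures.

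Among other kinase inhibitors, the imprinted gene Cdkn1c (p57) rose with RA. Its signal was 1128 and 990 in untreated scramble and knockdown cells and 8320 and 4058 after RA. The log2 increase was 2.85 in scramble and 1.98 in knockdown cells (limma 2.41, standard error 0.28, adjusted p = 0.0136). Like Ccnd2, it was higher in both RA-treated populations, and the knockdown array was lower than the scramble array after RA, by 0.99. Cdkn2c (p18) read 79.3 and 80.2 before RA and 133 and 149 after it. It was detected on the RA-treated arrays alone, so its direction was fixed by the filter, and its increase had bounds of 0.76 in scramble and 0.93 in knockdown cells on the log2 scale. Cdkn2a, whose locus encodes p16 and p19ARF, read 407 and 308 before RA and 280.1 and 564 after it, and was 1.14 higher on the log2 scale in knockdown than in scramble cells after RA (0.95 without background correction). Limma called 2 of these 5 inhibitors higher, Cdkn1c and Cdkn2c, and 0 lower, against 18.9% and 16.3% of all genes. With the direction of Cdkn2c fixed by the filter, the count is a description only.

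Of 11 pocket protein and E2F genes tested, 1 rose and 2 fell with RA, against 18.9% and 16.3% of all genes. E2f4, a repressor E2F, fell by 1.04 (standard error 0.16, adjusted p = 0.0211 by limma) and E2f3 fell by 0.90 (adjusted p = 0.0264), while E2f5 rose by 0.85 (adjusted p = 0.0419). Rb1 had 0.52 (adjusted p = 0.0821). Of 16 E2F target genes 5 fell and 0 rose, against 16.3% and 18.9% of all genes. Their median log2 difference with RA was -0.60 in scramble and -0.34 in knockdown cells. The 5 that fell were Mybl2, a transcription factor gene of the S and G2 phases (-1.66, standard error 0.17, limma adjusted p = 0.0124), Rrm2, Tyms and Tk1 of nucleotide synthesis (-0.86, -0.82 and -0.85) and Rpa2 of replication (-0.80). The replication clamp gene Pcna had -0.64 (adjusted p = 0.0575). None of these 16 genes differed by 2-fold between knockdown and scramble cells in either state, where 0.195% of all genes did before RA and 6.42% after it.

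Of 16 genes of p53 and its targets limma called 2 higher and 5 lower, against 18.9% and 16.3% of all genes, and for 1 of the 5, Gdf15, the filter fixed the direction. Plk2, a kinase gene induced by stress, rose by 1.17 (standard error 0.17, adjusted p = 0.0183 by limma) and Ccng1 rose by 0.77 (adjusted p = 0.0353). Pmaip1, the gene of the cell death factor Noxa, fell by 1.51 (adjusted p = 0.0147) and Gadd45a fell by 1.21 (adjusted p = 0.0388). Trp53 itself fell by 0.89 (adjusted p = 0.0269) and Sesn2 fell by 0.84 (adjusted p = 0.0357), and Mdm2 had -0.26 (adjusted p = 0.428). Gdf15, a stress cytokine gene, read 139 and 136.5 before RA and 65.4 and 68.4 after it. It was detected on the untreated arrays alone, with bounds of -1.41 in scramble and -1.52 in knockdown cells on the log2 scale. Without background correction these were -0.74 and -0.78, and the differences of Pmaip1 were -0.75 and -0.99. The 6 proliferation and mitosis markers tested, among them Cdk1, Ccnb1 and Top2a, had 0 that rose and 0 that fell with RA, against the same 18.9% and 16.3% of all genes. Their median log2 difference was -0.24 in scramble and -0.58 in knockdown cells.

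Of 8 genes of cyclin turnover and kinase activation 1 rose and 0 fell, near the 18.9% and 16.3% of all genes. This was Fbxo4, an F-box gene for the breakdown of cyclin D1 (1.17, standard error 0.19, adjusted p = 0.0225 by limma), which was detected on 3 of 4 arrays. Of 5 Myc and Foxo regulators 1 rose and 0 fell, against the same shares, while Myc and Mycn were not detected on any array. Mycl, the L-Myc gene, rose by 1.57 (standard error 0.28, adjusted p = 0.0268, and 0.0583 with no filter on low values). The 1 gene tested among the other G1 kinases and cyclins, Mnat1, had -0.23 (adjusted p = 0.333), and Cdk6, Cdk7 and Ccna1 were not detected on any array.

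**Figure D5:**
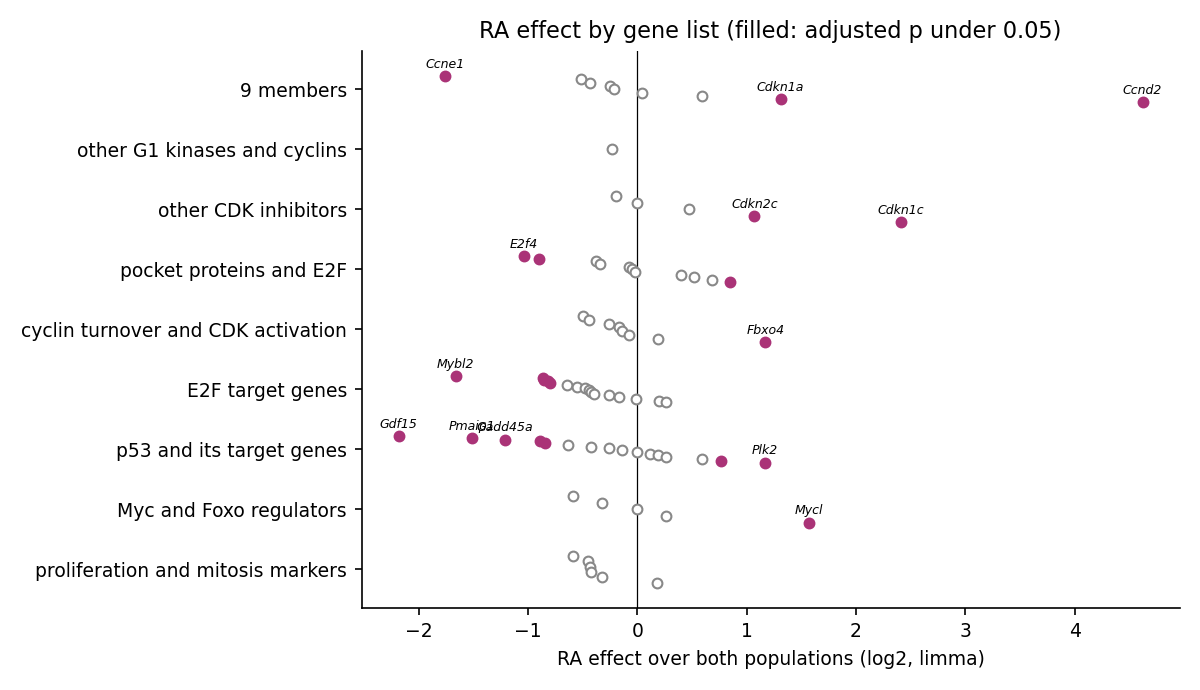
RA effect over both populations (horizontal axis, log2, limma) for the 9 genes and for the genes of 8 related lists (rows), filled where the adjusted p was under 0.05. The detection filter fixed the directions of Cdkn1b, Cdkn2c and Gdf15. Ccnd2 at 4.62 lies above all other genes drawn, and the E2F targets that passed all lie below 0.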

How the data were processed

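RNA of 4 samples was measured on 4 bead arrays, 1 per group, and groups were taken from the sample titles. Per the file headers, the authors deposited for every probe an average bead signal, an intensity that was not normalized, with its detection p-value. The deposited median-normalized values are a ratio of each intensity to its array's median, and a further deposited ratio sets that against undifferentiated scramble cells. Tables matched for all 25697 probes (relative tolerance 1e-05). The scanner software version is not given in the sources used here. The labels place the 4 arrays on 1 chip, the RA-treated arrays in neighbouring positions and the untreated arrays in others, so chip position and RA state cannot be told apart. Array number limits the precision.

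From the intensities, background was corrected with limma 3.58.1 in R 4.3.3 (normexp, with negative controls inferred from detection p-values, offset 16), followed by quantile normalization and log2. Probes were named through RefSeq accession (23876, 92.9%), and each gene was read from its brightest probe on average. Where 1 array of a pair was not detected, its value was raised to the lowest detected value, giving a bound. Genes detected on at least 1 array entered the additive limma fit (RA and shRNA). The remaining steps ran in Python 3.11.15, and the fit was tested on simulated data. That simulation used independent noise and the same RA shift in both populations. It therefore cannot show how the p-values behave where the RA effects of the populations differ. Alternatives changed the background, scaling, offset, probe choice, detection threshold, filter and variance prior.

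Named were all members, the 3 genes of nearest pattern to each member past 2-fold, and up to 4 genes per list past 2-fold with RA in both populations or with the knockdown after RA. Other list genes were named for small counts or as contrasts after their values were seen. Members and lists were chosen with earlier results of these data known.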

Additional observations from a re-analysis of the deposited data

Results flagged for a closer look

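The RA effect on Ccnd1 had opposite directions in the populations, -1.43 in knockdown cells and 1.00 in scramble cells on the log2 scale, each from 1 pair of arrays. The difference between them was not tested, since the design has no replicate. Its size was -2.43 with the brightest probe and -2.52 and -2.55 with the others, while the knockdown and scramble arrays differed by at most 0.07 before RA.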

How the results depend on the processing

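No pairing of replicates was possible because each group held 1 array, and the labels give no replicate numbers. The additive fit already holds the population as a term beside RA, and with 1 array a group no replicate could be left out. In these alternatives a member was read from its brightest probe, or from the mean of its probes under that setting. Dimmer probes were not counted on their own. The dimmer detected probe of Ccnd3 passed for RA in the fit of every probe (limma adjusted p = 0.0424), unlike the brightest. Read this way, members past the threshold kept their direction under all alternatives run. All members kept their side of the threshold, except Ccnd1 with RA in scramble cells, which was below 2-fold without background correction (0.97), with median scaling (0.85), with the deposited median-normalized values (0.89), with an offset of 50 (0.99) and with the mean of all probes (0.81). Some small differences changed sign, such as Cdk2 with RA in scramble cells, at 0.12 as reported and -0.08 with median scaling. The limma RA term ranged over settings from 4.37 to 4.62 for Ccnd2, from -1.76 to -1.45 for Ccne1 and from 1.13 to 1.35 for Cdkn1a, with adjusted p-values of at most 0.0255, 0.0246 and 0.0283. After RA the knockdown difference ranged from -2.46 to -2.14 for Ccnd1 and from -1.44 to -1.31 for Ccnd2. Ccna2 and Cdkn1b have no value where detection on all 4 arrays is required, and their bounds rest on signals near background.

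Counts over all genes moved more, and the cause was not tested. Without background correction 705 genes were lower with RA in scramble cells, 749 higher and 563 lower in knockdown cells, 3 higher and 2 lower with the knockdown before RA, 135 higher and 145 lower after RA, and 155 higher and 138 lower in the difference of RA responses. With deposited values these were 694 lower in scramble cells, 470 lower in knockdown cells, 3 and 4 before RA, 187 and 158 after RA, and 223 and 150 in the difference. With an offset of 50 they were 3 and 3 before RA, 188 and 182 after RA, and 206 and 190 in the difference. Requiring detection on all 4 arrays, with fewer genes compared, left 6 lower before RA, 148 lower after RA, and 244 and 147 in the difference. With deposited values 70.9% of the genes past 2-fold with RA in knockdown cells were higher, against 55.8% as reported, and the median of all genes there was 0.11 on the log2 scale, against 0.00. The split for the knockdown after RA was 61.6% higher with detection on all 4 arrays, against 49.4%, and that for the difference 62.4%, against 52.3%. Before RA, with few genes past 2-fold, it was 60% without background correction, 50% with an offset of 50, 50% with detection on all 4 arrays and 45.7% without bounds, against 35.3%. Before RA a detection p under 0.05 gave 11 higher, values without bounds 21 and 25, and the mean of probes 7 lower.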

Other observations

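Aurka and Mycl, genes of the related lists, were past 2-fold lower in knockdown cells after RA, and their signals were also lower before RA, by less than 2-fold. Aurka, the gene of the mitotic kinase Aurora A, read 2306 in scramble and 1155 in knockdown cells before RA, and 1903 and 946 after RA. The log2 differences were -0.87 and -1.13 (limma's knockdown term, adjusted p = 0.818), and the second was -0.99 with the deposited median-normalized values. Mycl read 259 and 148 before RA and 1124 and 351 after it, with log2 differences of -0.98 and -1.90 and a knockdown term of -1.44 (standard error 0.28, adjusted p = 0.818 by limma). Neither term passed the adjustment, and the cause was not tested.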
